A study of Arabidopsis thaliana with 17 samples.

Results

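SVP (Short Vegetative Phase, AT2G22540), AGL24 (AT4G24540) and SOC1 (AT2G45660, listed as AGL20 in the annotation) are 3 of the 27444 nuclear protein-coding genes of Arabidopsis thaliana. They were chosen by their H3K27me3 cover, read earlier in these same endosperm and leaf lists, as flowering-time genes held to be active in leaves. Gene bodies and 2000 bp on each side are described here. Cover in endosperm and leaf is therefore a description with no test.

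H3K27me3 is trimethylation of lysine 27 on histone H3, which is set by Polycomb repressive complex 2 and is found over genes held silent. All 3 genes encode MADS-box transcription factors. SVP delays flowering by repressing FT and SOC1, whereas SOC1 integrates the flowering signals and, together with AGL24, activates LFY in the shoot apex. SVP and AGL24 are close relatives with opposite effects on flowering time. Endosperm is the tissue of the seed that nourishes the embryo, and it receives a maternal genome dose above the paternal one.

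CUT&RUN, in which an antibody directs a nuclease to cut out the chromatin it binds, was done on sorted nuclei. Endosperm nuclei with a DNA content of 6N came from seeds of the cross Col (mother) by Ler (father), taken 4 days after pollination. They were either fixed with formaldehyde (2 H3K27me3 and 2 H3 libraries) or unfixed (2 and 2). Leaf nuclei of 2N to 8N came from Col plants of 3 weeks (1 H3K27me3 and 1 H3 library). IgG controls and tests on seed coat and embryo nuclei make up the rest of the 17 samples and were not analysed here. Replicates are separate libraries by their labels, and the sources used here do not say whether they came from separate plants.

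The 5 domain lists held 5878 to 8403 nuclear H3K27me3 domains, covering 12.7 to 21.3 Mb. Unfixed replicate 2 had the least covered length (12.7 Mb against 19.8 to 21.3 Mb in the other endosperm lists) and the narrowest domains (median 1200 bp against 1800 to 2250 bp), so values with and without it are given below. Reads assigned to a parent were deposited as 1 pooled table for endosperm, in which H3K27me3 had 11018316 reads of Col and 1170723 of Ler, and H3 had 6201154 of Col and 1437423 of Ler. Depth per library is unknown. Col made up 90.4% of H3K27me3 and 81.2% of H3 reads, and a 2 to 1 genome dosage alone would give 66.7%. What raised both shares above that value was not tested. Tissue could not be checked through RNA markers. Of marker lists for other tissues, 2 of 11 seed coat genes, 5 of 8 embryo genes and 2 of 6 leaf genes were marked in every endosperm list, as were 4 of 10 endosperm genes and 11.9% of all genes. In leaf, 5 seed coat, 8 embryo, 1 leaf and 7 endosperm genes were marked, as were 20.3% of all genes. The part of other tissues in the results below was not tested.

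Marked, for a gene and a list, means that at least 50% of the gene body lay inside domains. SVP was marked in 4 of 4 endosperm lists, AGL24 in 3 and SOC1 in 3, and none of them was marked in leaf. At a limit of 80% of the body, SVP was marked in 3 endosperm lists, AGL24 in 2 and SOC1 in 2. Of all genes, 20.4% were marked in fixed replicate 1, 20.2% in fixed replicate 2, 21.6% in unfixed replicate 1, 16% in unfixed replicate 2 and 20.3% in leaf. Marking in all 4 endosperm lists without marking in leaf, which SVP met, held for 2.31% of all genes. Marking in at least 3 endosperm lists and not in leaf, which all 3 genes met, held for 3.91%. Without unfixed replicate 2, all 3 genes were marked in each of the other endosperm lists and not in leaf, as were 3.31% of all genes. Leaf has 1 library, and its cover chose these genes, so the difference has no test.

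SVP, the repressor, had the most complete cover. Domains covered 100% of its body in fixed replicate 1, fixed replicate 2 and unfixed replicate 1, 55.3% in unfixed replicate 2 and 0% in leaf. The mean was 88.8 ± 22.4% in endosperm (SD, n = 4), and each endosperm list lay above the leaf list. The domain ran from 9578401 to 9584550 on chromosome 2 (TAIR10) in fixed replicate 1 and spanned 6150 bp, wider than 91.9% of the domains in that list. The widths were 6450 bp (fixed replicate 2) and 7050 bp (unfixed replicate 1). Unfixed replicate 2 instead had domains of 2100 and 900 bp, with 450 bp between them.

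The edge on the higher-coordinate side of SVP lay at the same place, 649 bp past the gene body, in 3 of the 4 endosperm lists, and 949 bp past it in fixed replicate 2. The other edge varied. It lay 1246 bp beyond the body in both fixed lists, 2146 bp beyond it in unfixed replicate 1 and 1454 bp inside the body in unfixed replicate 2. The gene NET2D, which begins 1647 bp past the higher end of SVP, had 0% cover in all 5 lists. The stretch common to the 4 endosperm lists took in 2100 bp (9581101 to 9583200) and 900 bp (9583651 to 9584550), of which 649 bp lay past the gene. The 2351 bp of it inside the body made up 55.3% of the body, and the remaining 44.7% lay in 3 lists. The flank of 2000 bp on the lower side was covered over 56.2 ± 41.4% in endosperm, and the flank on the higher side over 36.2 ± 7.5% (SD, n = 4 each), with 0% of both in leaf. Within each list the authors' enrichment values placed the domains of SVP at percentile 72.8 in fixed replicate 1, 89.1 in fixed replicate 2 and 84.7 in unfixed replicate 1. The 2 domains in unfixed replicate 2 stood at 97.2 and 85.6. In leaf the nearest domains ended 6046 bp below the body and began 21049 bp above it.

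AGL24, the activator and close relative of SVP, had domains near both ends in every endosperm list, while cover of its middle differed between lists. Domains covered 57.9% of its body in fixed replicate 1, 100% in fixed replicate 2, 86.0% in unfixed replicate 1, 48.4% in unfixed replicate 2 and 0% in leaf. The endosperm mean was 73.1 ± 24.0% (SD, n = 4). Unfixed replicate 2 thus fell just under the limit of 50% and fixed replicate 1 lay just over it. Every endosperm list again lay above leaf. Only fixed replicate 2 had 1 unbroken domain, of 5250 bp (chromosome 4, 12670201 to 12675450). The other 3 had a domain at each end of the gene, with 1350 bp between them in fixed replicate 1, 450 bp in unfixed replicate 1 and 1650 bp in unfixed replicate 2.

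The common stretches of AGL24 were 1050 bp over the lower-coordinate end (12670651 to 12671700) and 750 bp over the higher-coordinate end (12673351 to 12674100). Past the lower end of the body the mark reached 246 bp and 696 bp in the fixed replicates 1 and 2, and 396 bp in both unfixed lists. Past the higher end it reached 1344 bp in both fixed lists and 1644 bp in unfixed replicate 1, and stopped 6 bp inside the body in unfixed replicate 2. Of the body, 48.4% lay in all 4 endosperm lists, 9.53% in 3, 28.0% in 2 and 14.0% in 1, so that every base was in at least 1 of them. Leaf had no domain within 37746 bp below or 43194 bp above AGL24, so this gene had a wider unmarked surrounding in leaf than SVP. The neighbour AT4G24530, 674 bp below AGL24, had cover over 0.187 ± 0.373% of its body in endosperm and 0% in leaf. AT4G24550, 1601 bp above it, had cover over 18.5 ± 21.5% in endosperm (SD, n = 4 each) and 0% in leaf.

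SOC1, the integrator, was the one of the 3 with domains in leaf. Domains covered 95.3% of its body in fixed replicate 1, 97.9% in fixed replicate 2, 68.4% in unfixed replicate 1, 12.4% in unfixed replicate 2 and 37.3% in leaf. The endosperm mean was 68.5 ± 39.7% (SD, n = 4). Unfixed replicate 2 lay below leaf and the other 3 lists above it, so the tissues overlapped, and the gap of 31.2 percentage points was smaller than the spread between endosperm lists. Without unfixed replicate 2 the gap was 49.9 points, and between unfixed lists alone and leaf it was 3.11 points.

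In the fixed lists 1 domain filled SOC1 almost from end to end, from 18807601 to 18811050 on chromosome 2 in fixed replicate 1 and from 18807301 to 18811050 in fixed replicate 2. Unfixed replicate 1 had domains of 1050 and 1800 bp, and unfixed replicate 2 had 1 domain of 450 bp. Of the body, 12.4% lay in all 4 endosperm lists, 53.9% in 3, 29.0% in 2 and 4.72% in 1. Leaf had domains of 750 and 600 bp, from 18808501 to 18809250 and from 18809851 to 18810450. By the authors' enrichment values, which rank domains within a list, the leaf domains stood at percentiles 36.0 and 2.47 of the leaf list. The fixed domains stood at percentiles 64.1 and 76.3 of their lists, and ranks from different lists show no change between them. Of the 1350 bp of SOC1 in leaf domains, 300 bp lay in all 4 endosperm lists, 900 bp in 3 and 150 bp in 2.

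Next to SOC1 lies AGL6, another MADS-box gene, 918 bp below it. AGL6 had cover over 92.2% of its body in every endosperm list and 100% in leaf. Its domain ended 1104 bp below SOC1 in each endosperm list and 804 bp below it in leaf, and was separate from the domains over SOC1 in all 5 lists. The flank of 2000 bp on that side of SOC1, which holds part of AGL6, was covered over 47.4 ± 5.10% in endosperm (SD, n = 4) and 59.8% in leaf.

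**Figure D1:**
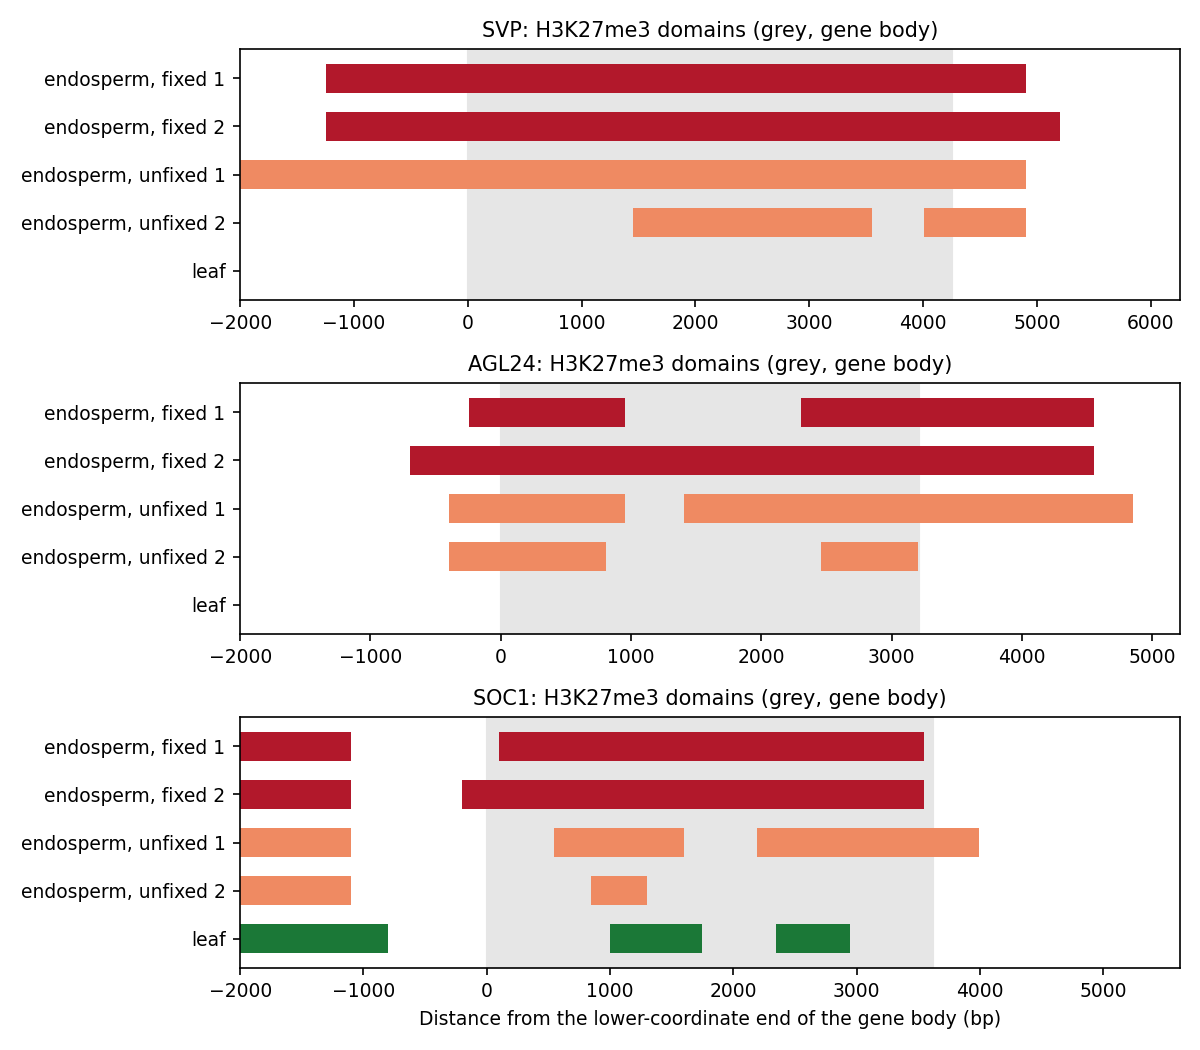
H3K27me3 domains (bars) over SVP, AGL24 and SOC1 with 2000 bp on each side, by distance in bp from the lower-coordinate end of the gene body (grey); the 4 endosperm lists stand above the leaf list. SVP and AGL24 have bars in the endosperm lists and none in leaf, and SOC1 has 2 short bars in leaf (750 and 600 bp) besides that of AGL6 at the left edge.

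**Figure D2:**
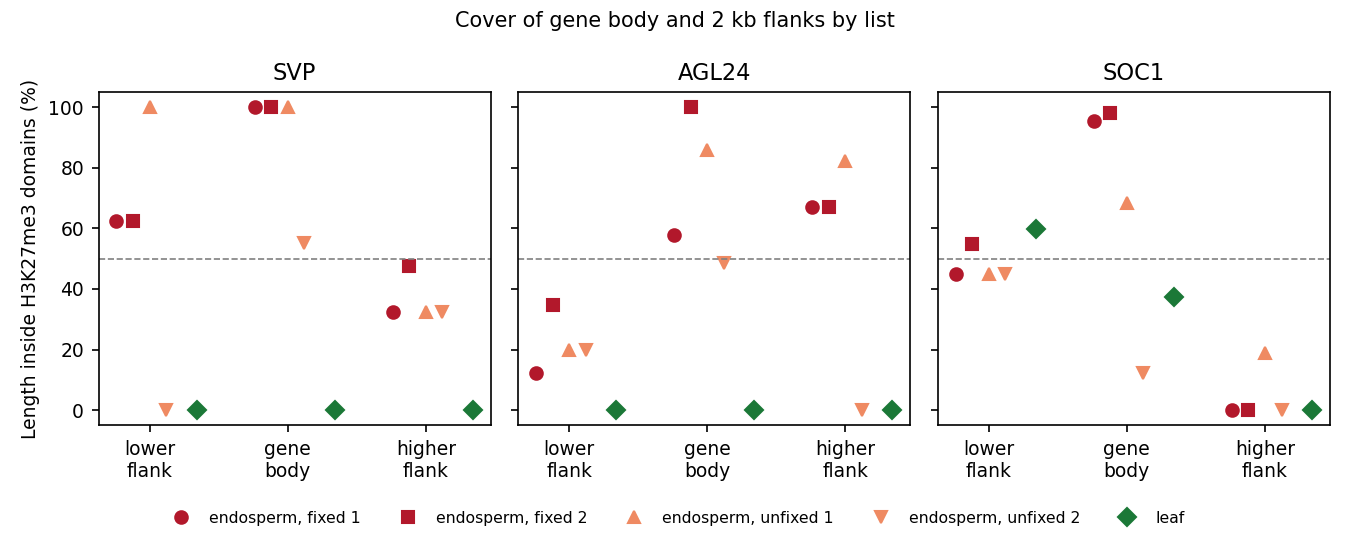
Percent of length inside domains for the 2000 bp flanks and the gene body, 1 point per list, with the limit of 50% dashed. Body cover in unfixed replicate 2 (55.3% for SVP, 48.4% for AGL24, 12.4% for SOC1) is the lowest of the endosperm lists for each gene, and leaf is at 0% except for SOC1 (37.3% of the body) and its lower flank.

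Fixed and unfixed nuclei were compared next, a contrast that was not the one used to choose the genes. Body cover of SVP averaged 100% in fixed and 77.6 ± 31.6% in unfixed lists (SD, n = 2 each). That of AGL24 averaged 79.0 ± 29.7% in fixed and 67.2 ± 26.6% in unfixed lists. Body cover of SOC1 averaged 96.6 ± 1.87% in fixed and 40.4 ± 39.5% in unfixed lists. SOC1 was the one gene for which both fixed lists lay above both unfixed lists. The two-sided exact permutation test gave p = 0.333 for SOC1, which is the smallest p that 2 against 2 lists allow, p = 0.667 for AGL24 and p = 1.00 for SVP. In SVP all endosperm lists but unfixed replicate 2 were tied at 100%, so every split of the lists gave the same absolute difference. The p of SVP was therefore fixed in advance and says nothing about fixation. The fixed-minus-unfixed difference of AGL24 (11.8 points) turned to -7.01 points without unfixed replicate 2 and to -9.25 points without fixed replicate 2. It was 32.8 points without fixed replicate 1 and 30.6 points without unfixed replicate 1. The difference of SVP (22.4 points) was 0 without unfixed replicate 2 and 44.7 points without unfixed replicate 1, and that of SOC1 was 28.3 points without unfixed replicate 2 and 84.2 points without unfixed replicate 1, against 56.2 with all lists.

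The parental counts describe the same mark by parent. The labels list this table for the 8 endosperm H3K27me3 and H3 libraries, whose domains chose the genes, so values above unmarked genes follow in large part from that choice and are no further support for it. H3K27me3 reads of both parents were divided by H3 reads in the same 150 bp bins. Values are log2 ratios relative to the median of genes marked in none of the 5 lists, which stood at -0.53 when scaled to totals. Errors are counting errors widened by the spread between the lower- and higher-coordinate parts of unmarked genes (2.02-fold for this measure), they cover no variation between replicates, and the columns allow no test. SVP held 1048 H3K27me3 reads (951 Col and 97 Ler) and 202 H3 reads (161 Col and 41 Ler). Its log2 ratio was 2.22 ± 0.22 (SE; 95% interval 1.79 to 2.66), which is 4.67-fold over unmarked genes and above 97.9% of the 19766 genes with enough reads.

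AGL24 had the fewest allele-assigned reads, 197 for H3K27me3 (184 Col and 13 Ler) and 57 for H3 (33 Col and 24 Ler). Its ratio was 1.63 ± 0.44 (SE; 0.78 to 2.49), which is 3.10-fold. SOC1 held 874 reads for H3K27me3 (777 Col and 97 Ler) and 277 for H3 (214 Col and 63 Ler). Its ratio was 1.51 ± 0.20 (SE; 1.11 to 1.90), which is 2.84-fold. As a description, since high cover in the same libraries chose them, all 3 genes were at least 2-fold over unmarked genes with an interval beyond 0. Of all genes tested 19.2% were, and 1.25% were at least 2-fold below. SVP ranked highest. The intervals of the 3 genes overlapped, which does not by itself show that they were alike, and differences between the genes were not tested. Among genes marked in all endosperm lists, whose median was 1.65, SVP stood at percentile 83.4, AGL24 at 48.8 and SOC1 at 38.6. Scaled to totals with no centring, SVP stood at 1.70, AGL24 at 1.11 and SOC1 at 0.98, the last just under 2-fold. Over all genes, 3797 were called above and 248 below unmarked genes, and with no centring 1748 above and 1895 below.

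In SVP the ratio was 2.20 ± 0.46 in the lower-coordinate and 2.23 ± 0.26 in the higher-coordinate part of the body (widened SE). The body was split at its middle. Values for whole parts do not show how even the ratio was within them. The common stretch of 2100 bp alone had 514 H3K27me3 reads of Col and 56 of Ler. Beside them stood 65 H3 reads of Col and 20 of Ler. The common stretch of 900 bp, partly past the body, had 58 H3K27me3 reads of Col and 12 of Ler. Its H3 reads were 24 of Col and 7 of Ler. In the flank on the lower side the ratio was 1.35 ± 0.29, and the flank on the higher side held only 19 H3K27me3 and 2 H3 reads. Reads can be assigned to a parent only where Col and Ler differ in sequence, and 26 of the 28 bins of SVP, 15 of the 21 of AGL24 and 20 of the 24 of SOC1 held any. In SOC1 these parts stood at 1.37 ± 0.40 and 1.55 ± 0.23, the flank with AGL6 at 1.29 ± 0.26 and the flank on the higher side at 0.88 ± 0.24. That last flank lay above unmarked genes, although its cover by domains was 0% in 3 endosperm lists and 18.8% in unfixed replicate 1. In AGL24 the lower-coordinate part stood at 1.55 ± 0.48. The higher flank stood at 2.30 ± 0.58, on 161 H3K27me3 and 29 H3 reads. That flank is under the 40 reads per antibody asked of genes, since parts and flanks needed only 20. The higher-coordinate part held only 40 H3K27me3 and 9 H3 reads and is given no ratio. Of these, the 750 bp stretch in all 4 endosperm lists held 3 H3K27me3 and 3 H3 reads, so the allele-assigned reads hardly describe that stretch.

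**Figure D3:**
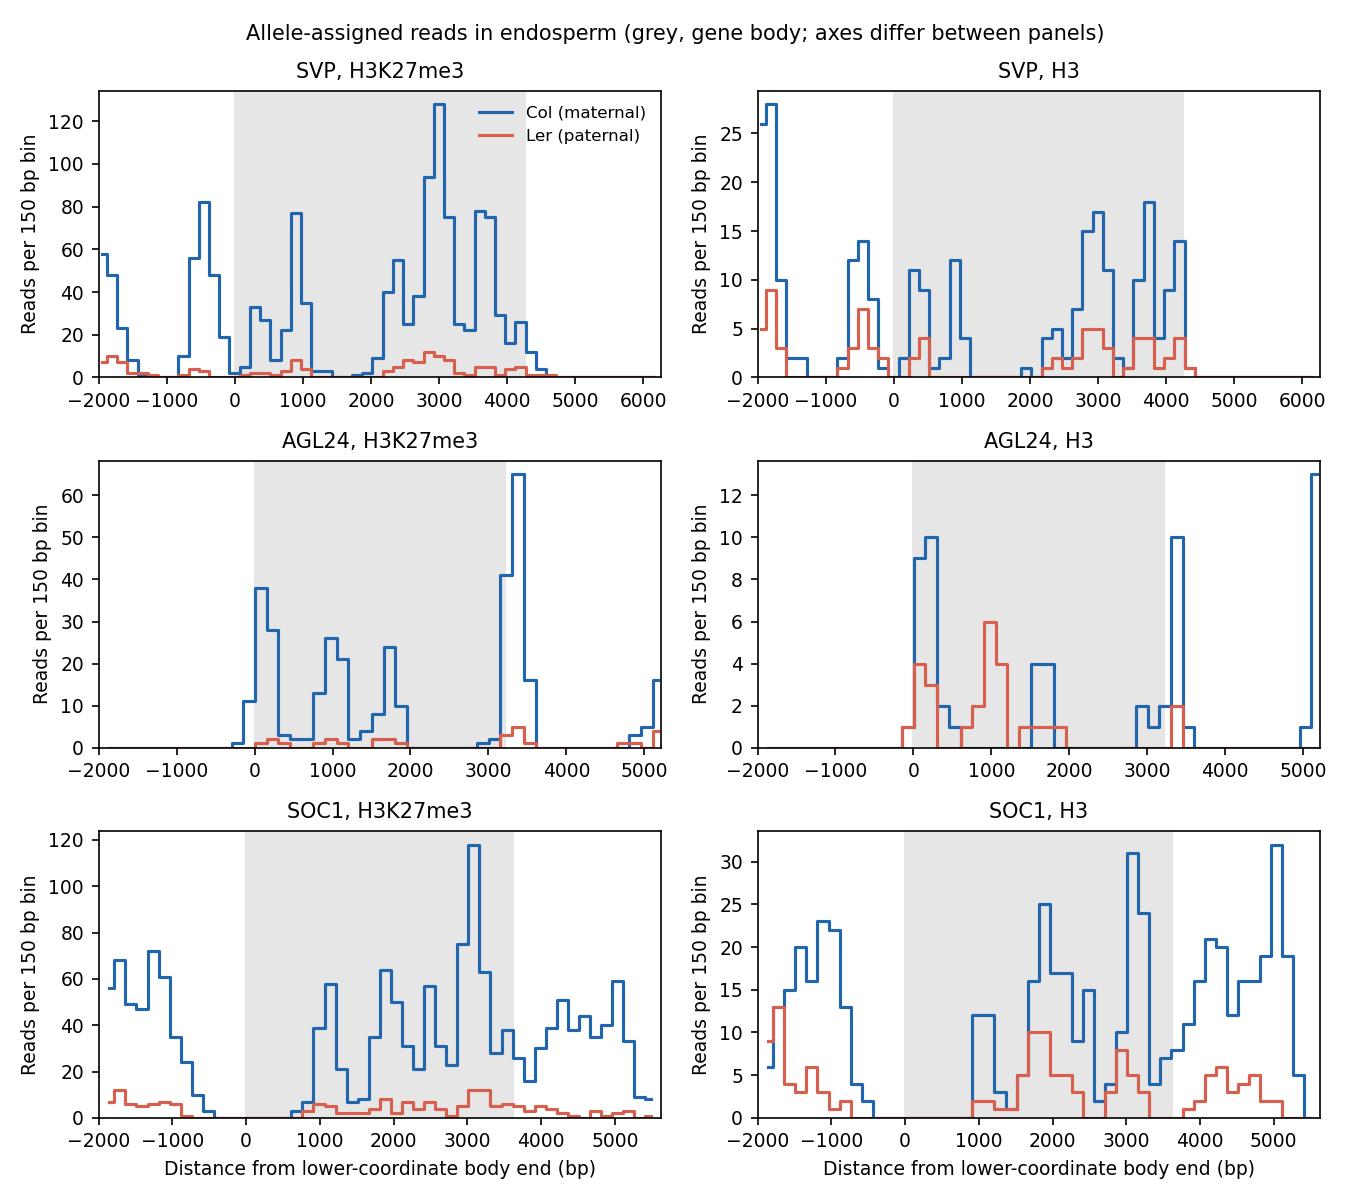
Allele-assigned reads per 150 bp bin in endosperm for H3K27me3 (left) and H3 (right), Col and Ler, by distance in bp from the lower-coordinate end of the gene body (grey). Reads stand in clumps with empty stretches between them, Col lies above Ler for H3K27me3 over the 3 gene bodies, and AGL24 has H3 reads of Ler in bins with none of Col.

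Split by parent, SVP stood above unmarked genes on both genomes. H3K27me3 over H3, relative to unmarked genes of the same parent, was log2 2.28 ± 0.25 on Col and 1.85 ± 0.43 on Ler (widened SE), which is 4.85-fold and 3.61-fold. The value on Ler was above that of 91.5% of the 2137 genes marked in all endosperm lists, whose median on Ler was 0.83. In SOC1 this ratio was 1.58 ± 0.22 on Col and 1.24 ± 0.37 on Ler, which is 2.98-fold and 2.36-fold. Both intervals of SVP and of SOC1 lay above 0 on each genome. In AGL24 the value was 2.18 ± 0.54 on Col and -0.24 ± 0.78 on Ler, where the interval of -1.77 to 1.29 spans both the unmarked and the marked level.

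The parental ratio, Col to Ler in H3K27me3 over Col to Ler in H3, was log2 0.42 ± 0.47 for SVP (widened SE; 95% interval -0.49 to 1.33) and 0.33 ± 0.41 for SOC1 (-0.47 to 1.13), relative to a median of 0.91 in unmarked genes. Neither was called toward a parent. Both lay in the lower part of genes marked in all endosperm lists, at percentiles 26.0 and 22.5, where the median was 0.94. AGL24 had a ratio of 2.41 ± 0.89 (0.68 to 4.15) and was called toward Col, as were 8.28% of 17982 genes tested, against 3.04% called toward Ler. Calls over all genes numbered 1489 toward Col and 546 toward Ler, and 939 and 1057 once the overall ratio of each antibody was removed instead of the median of unmarked genes. The call of AGL24 rests on few reads and on H3. Col made up 57.9% of H3 reads in AGL24 (33 of 57; 95% Wilson interval 45.0% to 69.8%), and the share was lower in 0.501% of genes tested, whose median was 79.9%. It made up 93.4% of H3K27me3 reads there (184 of 197; 89.0% to 96.1%). These intervals cover counting error only.

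In 6 bins of AGL24, H3 had 15 Ler reads and no Col read, while H3K27me3 had 76 Col and 5 Ler reads in the same bins. Without those bins the ratio of AGL24 was 0.95 ± 1.17, and without any division by H3 it was 0.90 ± 0.64 (widened SE), neither of them called. Both alternatives were chosen after the data were seen. SVP and SOC1 had no such bins, and without H3 their ratios were 0.41 ± 0.24 and 0.12 ± 0.25. With no centring the ratios of SVP and SOC1 were 1.33 and 1.24, both then called toward Col.

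**Figure D4:**
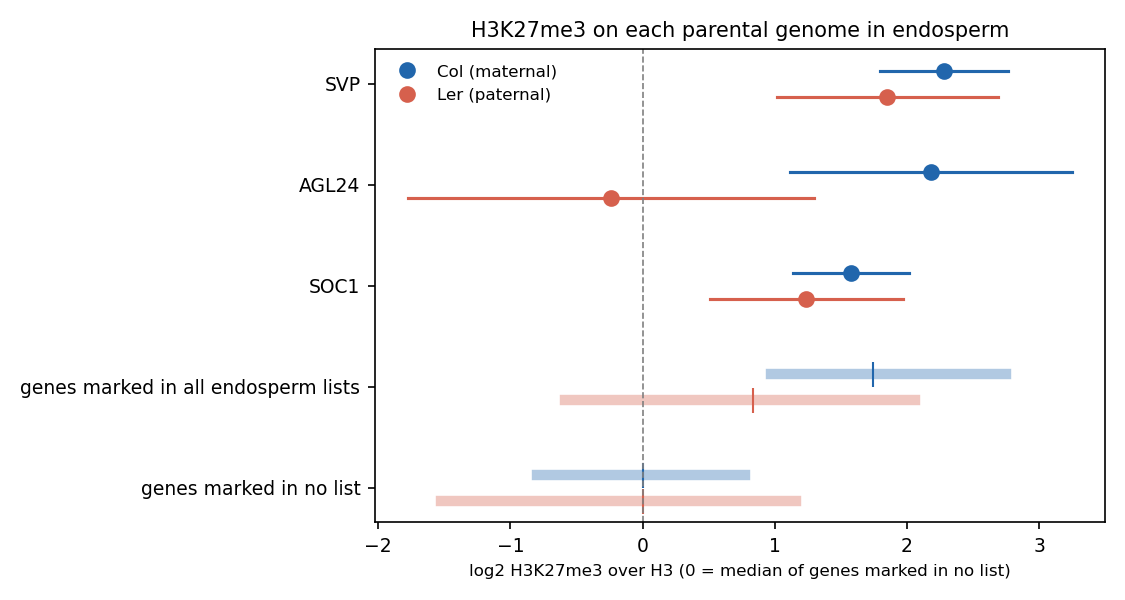
H3K27me3 over H3 in endosperm on the Col and Ler genomes, as log2 relative to the median of unmarked genes; points with lines are gene values with widened 95% intervals, and pale bars span percentiles 5 to 95 of a class of genes with its median as a tick. SVP and SOC1 lie above 0 on both genomes, and AGL24 does so on Col (2.18), with a wide interval around -0.24 on Ler.

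The genes around SVP, AGL24 and SOC1 in the flowering pathway were then read in the same way. They were 37 other genes in 4 lists. Of these, 14 were marked in every endosperm list and 19 in leaf (37.8% and 51.4%, against 11.9% and 20.3% of all genes). The 14 comprised 11 that were also marked in leaf (9.58% of all genes were) and 3 that were not, which is 8.11% against 2.31% of all genes. These 3 were all among the 16 listed repressors of flowering, and the lists were chosen with earlier results of these data known. At a limit of 80% of the body, 1 of the 37 genes was marked in every endosperm list and not in leaf. Another 4 were marked in leaf without any endosperm list, as were 2.94% of all genes. By reads, 17 of the 29 with enough reads were at least 2-fold over unmarked genes, against 19.2% of all genes tested. Their median log2 ratio was 1.31, against 0.22 over all genes tested. The parental ratio was called toward Col for 9 of 28 and toward Ler for 0, against 8.28% and 3.04% of all genes tested, whose split between the parents depends on the centring as given above. Their median was 0.45, against 0.16 over all genes tested.

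Of 16 repressors that act with or beside SVP, TOE1, TEM2 and SNZ were marked in every endosperm list but not in leaf. TOE1, an AP2-type repressor of FT, had 95.4 ± 9.18% of its body in endosperm domains and 0.808% in leaf domains. TEM2, a RAV-type repressor of FT, was covered over 84.7 ± 23.3% and 0%, and SNZ, another AP2-type repressor, over 78.7 ± 18.3% and 0% (SD, n = 4 each). By reads, TOE1 stood at log2 2.21 ± 0.19 and TEM2 at 1.36 ± 0.35 over H3, whereas SNZ, with 0.36 ± 0.50, had an interval that reached unmarked genes (widened SE). MAF1 (FLM), which acts together with SVP in the response to temperature, was covered over 56.2 ± 27.9% in endosperm (SD, n = 4; marked in 2 lists) and 0% in leaf. TEM1, a relative of TEM2, was marked in 2 endosperm lists, with 28.8 ± 33.3% cover in endosperm (SD, n = 4) and 0% in leaf. SMZ, a relative of SNZ, was marked in unfixed replicate 1 alone. Its cover was 13.3% in both fixed replicates, 61.4% in unfixed replicate 1, 0% in unfixed replicate 2 and 40.0% in leaf, so leaf lay above 3 of the 4 endosperm lists. The median of the endosperm means over the 16 repressors was 32.1%, against 0% over all genes.

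FLC, the partner of SVP in repression, and TFL1 were marked in all endosperm lists and in leaf. AGL15 was marked in leaf alone (93.0%), with 0% in every endosperm list. MAF4 and MAF5, relatives of FLC, were marked in leaf and in some endosperm lists. MAF2, MAF3, TOE2, TOE3 and AGL18 were marked in no list. FLC had 98.1 ± 3.71% cover in endosperm (SD, n = 4) and a log2 ratio over H3 of 2.72 ± 0.22 (widened SE), against 88.8 ± 22.4% and 2.22 ± 0.22 for SVP.

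Of 8 activators upstream of SOC1, FT and TSF, the mobile flowering signals that SVP represses, were marked in all endosperm lists and in leaf. Cover of FT was 95.7 ± 8.56% in endosperm and 100% in leaf, and that of TSF 90.0 ± 20.1% in endosperm and 100% in leaf (SD, n = 4 each). GA20OX2, a gibberellin synthesis gene, was marked in leaf alone (73.6%), and CO, GI, FD, SPL9 and SPL15 had 0% in all 5 lists. Among 8 floral identity targets, LFY, AP1, CAL and FUL were marked in all endosperm lists and in leaf, SPL4 and SEP3 in leaf and in no endosperm list, and SPL3 and SPL5 in no list. Median endosperm cover was 0% over the activators and 52.3% over the identity targets.

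Within its clade, SOC1 had the lowest cover in the 1 leaf list. AGL14, AGL19, AGL42, AGL71 and AGL72 were covered over 94.6% to 100% in leaf, against 37.3% for SOC1. In endosperm the same relatives averaged 79.1% to 95.6%, against 68.5% for SOC1, and 3 of the 6 genes of the clade were marked in all endosperm lists, against 11.9% of all genes. By reads, all 6 were at least 2-fold over unmarked genes, against 19.2% of all genes tested, with AGL71 at log2 2.59 ± 0.29 and AGL19 at 1.62 ± 0.15 (widened SE). AGL14, AGL42, AGL71 and AGL72 were called toward Col in the parental ratio, as were 8.28% of all genes tested, and AGL19 and SOC1 were not. No test was made of these lists.

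**Figure D5:**
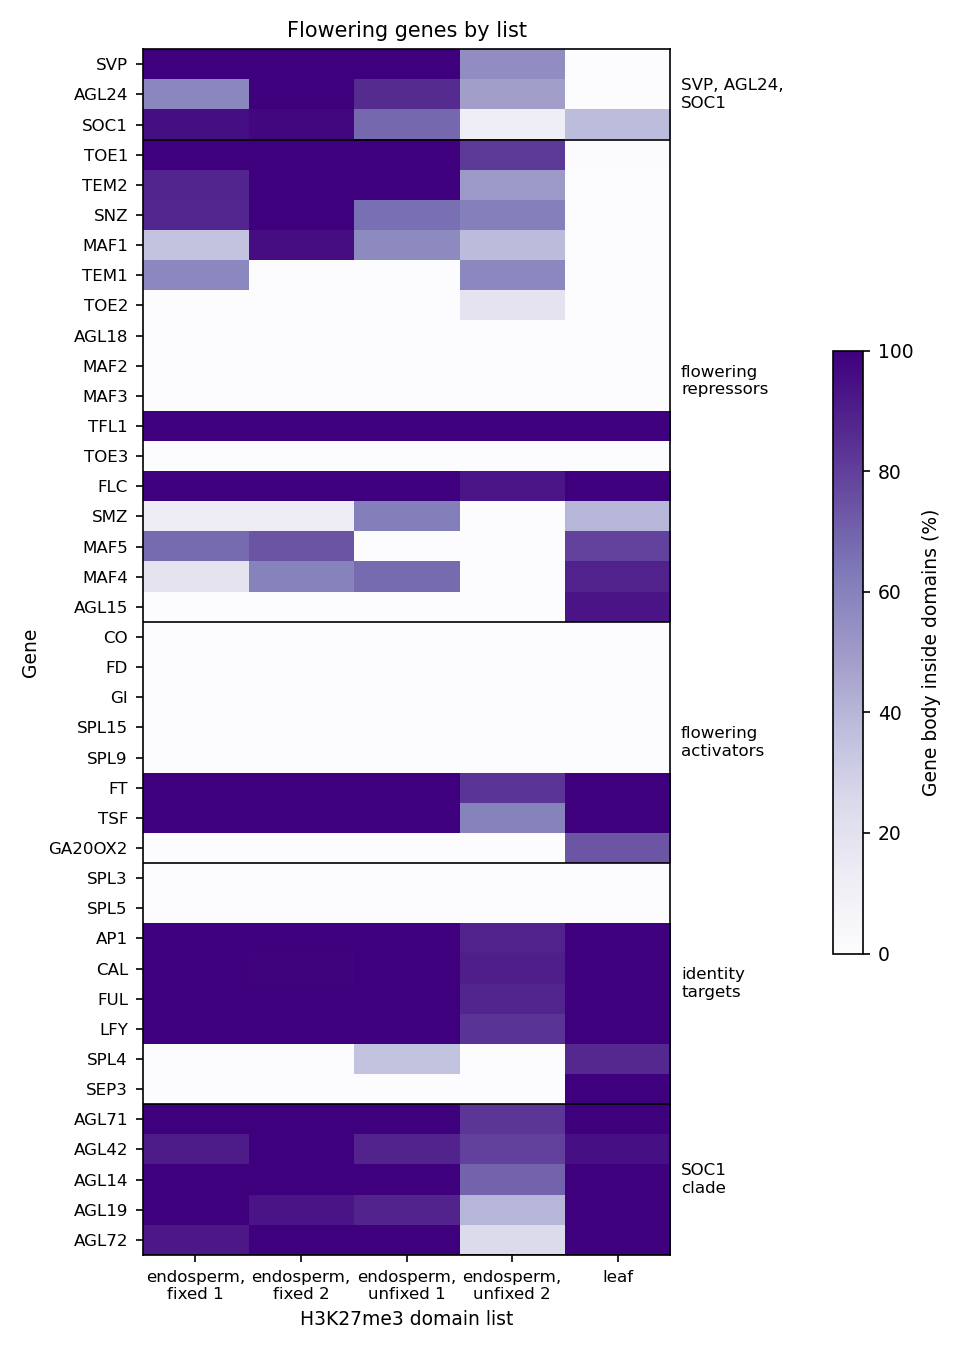
Percent of the gene body inside H3K27me3 domains (shade) for SVP, AGL24, SOC1 and 37 other flowering genes, in 4 endosperm lists and 1 leaf list. TOE1, TEM2 and SNZ are shaded in endosperm and not in leaf as SVP is, while FT, TSF, LFY, AP1, CAL, FUL and the relatives of SOC1 are shaded in both.

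Genes with the most similar domain pattern were found by the Euclidean distance over 15 covers (body and each flank in 5 lists). Nearest to SVP were KT2/3 (distance 59.2 percentage points), HRB1 (59.3) and AT2G41870 (62.0), and all 3 had 0% body cover in leaf. Nearest to AGL24 were AT3G13340 (58.5), DRIP2 (59.4) and CYCD2;1 (60.6), also with 0% in leaf. Nearest to SOC1 were AT5G25030 (57.5), AT3G24790 (70.3) and AT4G10600 (71.9), with 0%, 65.7% and 25.3% in leaf. Leaf cover is among the 15 covers, so the leaf values of these genes follow in part from the measure. SVP, AGL24 and SOC1 were not among the 3 nearest genes of each other, which are the closest by construction. Among the 27444 genes ordered by distance from SVP, AGL24 stood at rank 395 and SOC1 at rank 431. From AGL24, SVP stood at rank 474 and SOC1 at 1213, and from SOC1, SVP stood at 854 and AGL24 at 1993. AGL24 lay 131 points from SVP, SOC1 lay 133 points from SVP, and 154 points separated SOC1 from AGL24.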

How the data were processed

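Per the submitters' processing notes, the genome build was TAIR10, and the tools included SICER, Bowtie2, Trim Galore, deepTools 2.0 and Picard; their roles are not stated there. For each H3K27me3 library, the authors deposited a list of domains, each with its p-value or q-value (the files do not say which). An enrichment score per domain was also deposited by the authors. The scale of the score is not given, so it served only to rank domains within a list. The authors also deposited whole-number counts of reads per 150 bp bin for Col and Ler, pooled over libraries; the labels list this table for the 8 endosperm H3K27me3 and H3 libraries. The sources used here do not say by what rule a read went to Col or Ler, or if it could count in more than 1 bin.

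Genes came from RefSeq on TAIR10.1, whose nuclear coordinates were taken to match TAIR10. As a check, 19 of 37 flowering genes were marked in leaf at their own places, and 9 and 6 when moved by 50000 bp either way. This check would not show an offset smaller than the domains are wide. The table gives no strand, so flanks are named by coordinate, not as upstream or downstream. No sequence is printed. Bins were assigned to genes by their midpoint, and 0.5 was added to each count. Genes needed 40 reads per antibody and, for parental values, 10 Ler reads in H3. Errors were widened by the spread between the lower- and higher-coordinate parts of unmarked genes: 2.02-fold for H3K27me3 over H3 (10403 genes), 1.58-fold for the parental ratio (8939 genes), 2.00-fold on Col and 1.60-fold on Ler. Called means at least 2-fold with the 95% interval beyond 0. Cover of fixed and unfixed lists was compared by a two-sided exact permutation test. Alternatives were another limit of cover (80% or any overlap), the upper 75% of domains, a pseudocount of 1, other centring, every second bin and leaving out each list. Scripts ran in Python 3.11.15 with numpy 2.4.6 and pandas 2.3.3 and were tested on simulated data.

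Named genes were the 3 genes, genes meeting their flanks, the 3 nearest by domain pattern and members of the gene lists by class of marking. The genes and lists (flowering repressors, activators, identity targets, SOC1 clade, and markers of seed coat, endosperm, embryo and leaf) were chosen with earlier results of these data known.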

Additional observations from a re-analysis of the deposited data

Results flagged for a closer look

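In each of 12 sets of 4 endosperm lists (cover of the body, of each flank and of body and flanks together in SVP, AGL24 and SOC1), the list farthest from the others was compared with Dixon's limit for 4 samples. It was passed in 4 sets. In each of these the other 3 lists were tied, so the limit was passed by construction. The rate of about 1 in 20 sets by chance does not hold for such values, and no weight is given to the limit; the covers are given as a description. Body cover of SVP was 55.3% in unfixed replicate 2, against 100% in the other 3 lists. Cover of the flank on the higher-coordinate side of SVP was 47.5% in fixed replicate 2, against 32.5% in the other 3. Cover of the flank of SOC1 that holds part of AGL6 was 55.0% in fixed replicate 2, against 44.8% in the others. The other flank of SOC1 was covered over 18.8% in unfixed replicate 1 and 0% in the others.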

How the results depend on the processing

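Of 134 alternatives to 19 results, 119 kept the direction and the side of the limit. Part of these could not come out otherwise, since leaf cover of SVP and AGL24 was 0% in the lists that chose the genes. The tally thus gives no support to the cover in endosperm against leaf. It also counts as kept the gap of SOC1 to leaf, which was 31.2 points with all lists and 3.11 with unfixed lists only. With the block on replicate number, the fixed-minus-unfixed differences of SVP, AGL24 and SOC1 were 22.4, 11.8 and 56.2 points, as without it. The exact sign-flip test gave p = 1.00, 1.00 and 0.500, and 0.500 is the smallest p it allows here. So few lists allow no call with or without the block. Deviations of same-numbered lists correlated at -0.03 over 10504 genes, so the numbers were not taken to pair the lists. Leaving out each list in turn moved that difference between 0 and 44.7 points for SVP and between -9.25 and 32.8 points for AGL24. With no centring, the parental ratio was 1.33 for SVP and 1.24 for SOC1, both then called toward Col, H3K27me3 over H3 was 0.98 for SOC1, no longer 2-fold, and 6717 genes were called toward Col (19 toward Ler) and 1748 above H3, against 1489 (546 toward Ler) and 3797. The parental ratio of AGL24 was no longer called in every second bin, even set (2.33), without bins of Ler H3 reads alone (0.95) or without H3 (0.90). Genes called toward Col were 2873 with counting error alone (1181 toward Ler). They were 939, with 1057 toward Ler, after removal of each antibody's overall parental ratio, so calls toward Col made up most calls under the centring used here and not under that one. At 80% cover, 375 genes were marked in every endosperm list but not in leaf, against 634, and 1 flowering gene, against 3. The cause was not tested. Leaf has 1 library, and the pooled counts have no replicate. AGL24 has 57 allele-assigned H3 reads, which limits its parental values.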
